A study of Homo sapiens with 6 samples.

Results

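The complement components described here are 10 genes that were chosen by name: C1QA, C1QB, C1QC, C2, C3, CFB, CFD, CFP, C3AR1 and CD55. All 10 were found among the 61267 genes of the deposited count table. RNA was sequenced from the monocytic leukemia cell line THP-1, of human origin, after 48 h with 100 ng/ml of the phorbol ester PMA, under which the cells adhere and become macrophage-like. There were 6 libraries, 3 labelled NC and 3 labelled KD, all from PMA-treated cells of this line. The labels name no target for KD and do not say whether the 3 samples of a group were separate cultures, so p-values measure a spread that may be technical.

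Complement is a cascade of plasma and cell-surface proteins that tags and lyses microbes and calls in phagocytes. The classical pathway starts when C1q, built of A, B and C chains, binds antibody or a surface, and its proteases then act on C4 and C2. The alternative pathway turns over C3 with factor B (CFB), factor D (CFD) and properdin (CFP). Both form convertases that cleave C3, the fragment C3a is sensed by the receptor C3AR1, and CD55 on the cell surface takes the convertases apart. Most plasma complement comes from the liver, while macrophages are a known local source of C1q, properdin and C3.

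The libraries held 37628972 to 42970216 counts. METTL1, the methyltransferase in the series title, had 596, 653 and 642 counts in NC and 567, 528 and 524 in KD. Its difference did not pass the test (edgeR log2 fold change -0.10 ± 0.077 SE, adjusted p = 0.216). It did pass with library sizes alone (-0.29, edgeR adjusted p = 0.00249) and on the leukocyte scale defined below (-1.37, adjusted p = 7.87e-21). The median of all tested genes was itself at -0.23 with library sizes alone and at -1.31 on the leukocyte scale. The groups differed in RNA that is not typical of this cell line. The 10 listed HEK293-type markers summed to 2018 to 2334 CPM (counts scaled to library size) in NC and 10.1 to 11.3 CPM in KD. In all KD libraries 2 of the 10 (LIN28B and POU3F3) were at 0. Most of the NC sum was NEFM, with TMM-scaled means of 1595.5 CPM (NC) and 0.390 CPM (KD). Most of the KD sum was ZIC2, with TMM-scaled means of 7.93 CPM (NC) and 9.78 CPM (KD). With TMM scaling 9 of the 10 were lower in KD and 1 (ZIC2) higher, against 40.3% and 36.2% of all tested genes. Of 12 epithelial and fibroblast markers none was at 0 in a whole group, and their sum was 524 to 551 CPM in NC and 14.4 to 15.6 CPM in KD. Most of the NC sum was DSP, with TMM-scaled means of 389 CPM (NC) and 3.42 CPM (KD). Of the 9 that could be tested, 7 were lower in KD, 1 was higher and 1 did not pass. The shares of all tested genes were 40.3% lower and 36.2% higher. The 12 macrophage markers summed to 818 to 877 CPM in NC and to 1359 to 1402 CPM in KD, none of them at 0 in a whole group. The 12 hepatocyte markers summed to 5.69 to 6.42 CPM in NC and 16.5 to 17.7 CPM in KD, of which APOH, FGA and AHSG had no count in any library. Most of that sum was SERPINA1, with TMM-scaled means of 3.73 CPM (NC) and 16.0 CPM (KD), while albumin (ALB) was at 0.325 and 0.135 CPM. The 10 T, NK and B cell markers summed to 3.58 to 4.33 CPM in NC and 9.72 to 10.7 CPM in KD, with CD3E and CD3G at 0 in all 6 libraries, CD2 and MS4A1 at 0 in NC and CD3D at 0 in KD. Mitochondrial transcripts made up 5.57% to 5.70% of counts in NC and 3.79% to 3.89% in KD. Whether RNA of other cells entered the NC libraries, or samples were mixed or mislabelled, was not tested, and neither was the part of these differences in any KD against NC value below.

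Changes are therefore given on 2 scales. The first is that of all 21905 tested genes (TMM, the trimmed mean of M values), on which the median gene had a log2 fold change, KD over NC, of -0.05. The second, called the leukocyte scale, sets level, on average, 39 of 40 leukocyte-restricted genes, those with a mean of at least 1 CPM, and the median gene then stood at -1.31. On the first scale all 40 leukocyte genes were higher in KD, from 0.49 to 1.78 on the log2 scale with a median of 1.19. Of all tested genes 36.2% were higher on that scale. In such bulk samples, fewer cells of a type and less RNA per cell cannot be told apart.

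On the scale of all genes some complement genes were higher in KD and some lower, as among all tested genes (36.2% and 40.3%). C3 rose 2.06-fold in the libraries labelled KD, and C3AR1 and CD55 rose 1.60-fold and 1.44-fold, although all 3 were lower in KD on the leukocyte scale. Factor B and C2, the related proteases of the alternative and the classical convertase, fell, to levels 1.68-fold and 1.32-fold lower. CFD, CFP, C1QA and C1QB did not pass, and C1QC was too scarce to be tested. By edgeR's quasi-likelihood test, 5 of 9 tested members passed at 0.05 after adjustment, 3 higher and 2 lower, where 76.5% of all tested genes passed, 36.2% higher and 40.3% lower. With library sizes alone the same 5 members passed, and 28.4% of all tested genes were higher and 47.3% lower. In CPM, 6 of the 10 members had no overlap between groups, 3 with KD above NC and 3 with KD below, against 78% of all tested genes, 36.7% above and 41.3% below. The median log2 fold change of the 9 was 0.09. After scaling to the leukocyte genes all 9 passed as lower in KD with a median of -1.17, where 87.4% of all tested genes passed, 84.7% lower and 2.73% higher.

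**Figure D1:**
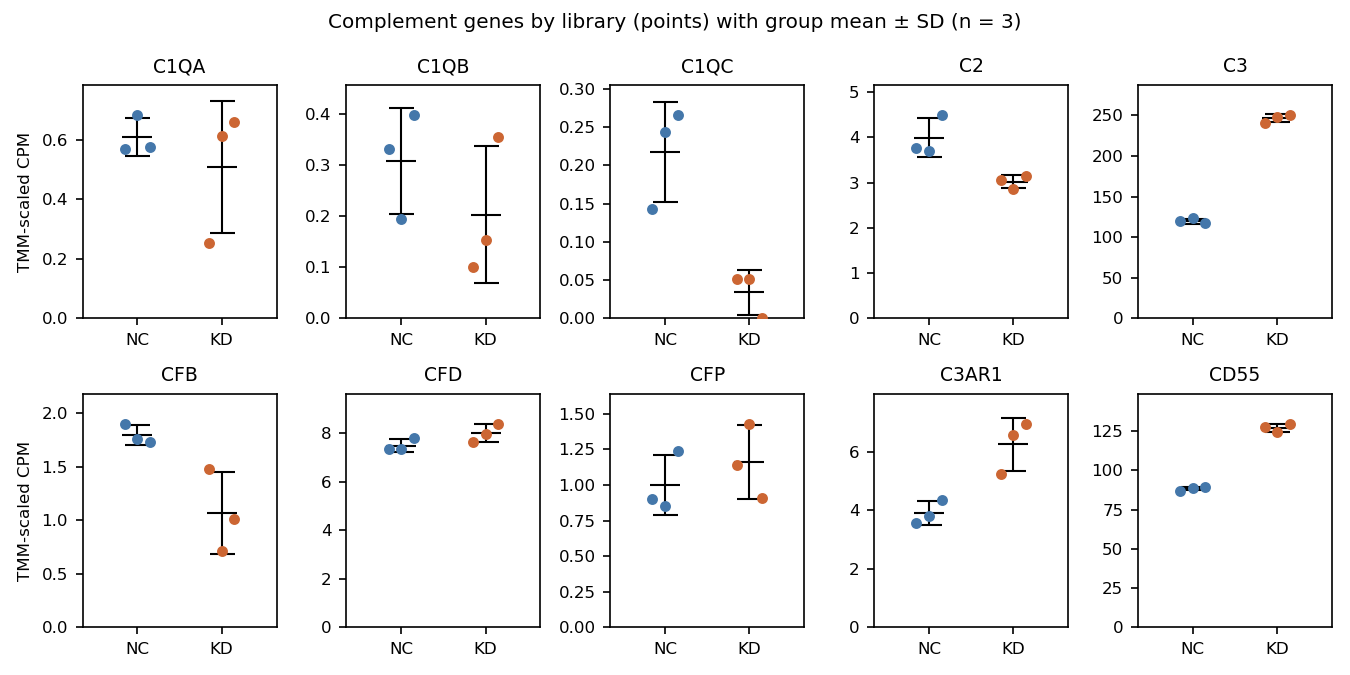
TMM-scaled CPM (vertical axes, each from 0) of the 10 complement genes in 3 NC and 3 KD libraries, as points with group mean ± SD. The points of the groups lie apart for C1QC, C2, C3, CFB, C3AR1 and CD55 and overlap for the other 4, while on the leukocyte scale all 10 genes lie lower in KD.

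C3 was the most abundant member. It is the protein on which all complement pathways meet (chromosome 19, 6677704 to 6730562, minus strand, GRCh38). It stood at 119, 123 and 117 CPM in NC and at 241, 249 and 250 CPM in KD. Every KD library was thus above every NC library by about the same step. The means were 119.9 ± 3.04 and 247 ± 5.05 CPM (SD, n = 3 each), with a log2 fold change of 1.04 ± 0.040 SE (edgeR adjusted p = 1.32e-17). C3 was the only member that also passed a test against a fold of 1.5, which 44.1% of all tested genes passed. Its direction turned on the leukocyte scale, to -0.22 ± 0.054 (edgeR adjusted p = 2.13e-04). The C3 change of 1.04 lies inside the range of the leukocyte-restricted genes and below their median. Another gene on the same strand shares 1357 of the 11577 exon bases of C3, and held only 2 to 12 counts a library.

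C3AR1, the receptor for the C3a fragment on myeloid cells, is a gene with low counts (chromosome 12, 8056844 to 8066359, minus strand). It held 150, 156 and 196 counts in NC and 206, 258 and 274 in KD, or 3.56, 3.81 and 4.34 CPM against 5.23, 6.58 and 6.94 CPM. The groups did not overlap, although the highest NC and the lowest KD library lay close together. The log2 fold change was 0.68 ± 0.130 SE (edgeR adjusted p = 4.81e-05), and on the leukocyte scale it was -0.58 ± 0.135 (adjusted p = 1.03e-04).

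Promoter windows from RefSeq (GRCh38.p14, 250 bases before to 50 after a start) were found for 8 of the 10 members. C3 and C1QC had none and were not searched. They were searched on both strands for 6 motifs, AP-1 (TGANTCA), STAT (TTCNNNGAA), C/EBP (TTGCNNAA), the NF-kB motif, the interferon response element (GAAA, any 2 bases, GAAA) and PU.1 (GAGGAAG). Phorbol ester is known to act through AP-1, and among the 8 members searched only the C3AR1 window held that motif. It is held by 7.72% of all 34943 windows. The C3AR1 stretch outside annotated exons (chr12:8066472-8066609, minus strand) is shown for this motif, in capitals, which starts 133 bases before the gene start.
C3AR1: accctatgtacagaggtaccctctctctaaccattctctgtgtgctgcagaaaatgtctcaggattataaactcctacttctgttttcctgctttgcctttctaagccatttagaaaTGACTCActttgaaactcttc

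CD55, or decay-accelerating factor, is anchored in the membrane and protects the cell that carries it (chromosome 1, 207321519 to 207386804, plus strand). Its CPM were 87.1, 88.8 and 89.5 in NC and 127, 124 and 129 in KD. Replicates lay close to each other and the groups stood apart. The log2 fold change was 0.52 ± 0.040 SE (edgeR adjusted p = 1.09e-11), and -0.74 ± 0.054 on the leukocyte scale (adjusted p = 8.58e-18). Neither CD55 nor C3AR1 shares exon bases with another gene of the table.

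Factor B carries the protease of the alternative pathway convertase (chromosome 6, 31945650 to 31952086, plus strand). CFB held 80, 72 and 78 counts in NC and 58, 28 and 40 in KD, or 1.90, 1.76 and 1.73 CPM against 1.47, 0.714 and 1.01 CPM. The KD libraries were all lower, but spread over a wider range than the NC libraries. The log2 fold change was -0.75 ± 0.238 SE (edgeR adjusted p = 0.00662), and without KD replicate 2 it was -0.52 and did not pass (adjusted p = 0.0542). C2, the neighbour of CFB on the same strand (31897785 to 31945673), is its counterpart in the classical pathway. It held 159, 152 and 203 counts in NC and 120, 112 and 124 in KD, or 3.77, 3.71 and 4.49 CPM against 3.05, 2.86 and 3.14 CPM. Here too all KD libraries were below all NC libraries, with NC replicate 3 the highest. The C2 log2 fold change was -0.41 ± 0.141 SE (edgeR adjusted p = 0.0119), and without NC replicate 3 it was -0.31 and did not pass (adjusted p = 0.0823). Both were lower still on the leukocyte scale, CFB at -2.00 ± 0.235 (edgeR adjusted p = 5.59e-11) and C2 at -1.67 ± 0.150 (adjusted p = 1.24e-14). These values are not independent in the table: a gene on the same strand shares 2249 of 5312 exon bases of CFB and 1820 of 7151 of C2. That gene held 215, 207 and 266 counts in NC and 163, 128 and 149 in KD.

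CFB, with the lowest log2 fold change of the 9 tested members, held the STAT motif and the interferon response element, which 7.66% and 3.57% of all windows hold, and an NF-kB match, as in 11.3%. The STAT and interferon matches are shown with their flanks, in capitals (chr6:31945993-31946021 and chr6:31945945-31945974, plus strand). The interferon element is read there on the other strand, and the matches do not overlap.
CFB STAT: cgcttggatgTTCCGGGAAagtgatgtgg
CFB interferon: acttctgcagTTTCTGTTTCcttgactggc

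Factor D, the protease that activates factor B, had nearly the same counts throughout (chromosome 19, 859453 to 867884, plus strand). CFD stood at 7.35, 7.34 and 7.79 CPM in NC and 7.65, 7.99 and 8.39 CPM in KD, and the groups overlapped. Its log2 fold change was 0.09 ± 0.095 SE (edgeR adjusted p = 0.371), and -0.09 with library sizes alone. After scaling to the leukocyte genes it was -1.17 ± 0.105 (edgeR adjusted p = 1.20e-14), near the median of all genes there. CFD shares 255 of its 1818 exon bases with MED16 on the other strand. Properdin, which stabilizes the alternative convertase, was near 1 CPM (chromosome X, 47623172 to 47630305, minus strand). CFP held 38, 35 and 56 counts in NC and 45, 56 and 36 in KD, so that each group covered most of the range of the other. The CFP log2 fold change was 0.21 ± 0.256 SE (edgeR adjusted p = 0.455), and -1.05 ± 0.263 on the leukocyte scale (adjusted p = 2.95e-04). A gene on the same strand shares 2751 of the 5617 exon bases of CFP.

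The C1q genes lie side by side on chromosome 1 (C1QA from 22635077, C1QC from 22643014 and C1QB from 22652762, all on the plus strand) and held at most 28 counts each in any library. C1QA held 24, 28 and 26 counts in NC and 10, 24 and 26 in KD. KD replicate 1 was low and the other libraries were alike. The C1QA log2 fold change was -0.26 ± 0.363 SE (edgeR adjusted p = 0.524). Leaving out KD replicate 1 turned it to 0.07 (edgeR adjusted p = 0.868). C1QB held 14, 8 and 18 counts in NC and 4, 6 and 14 in KD, and the groups overlapped (log2 fold change -0.60 ± 0.512 SE, edgeR adjusted p = 0.287). The C1QB value was -0.28 without KD replicate 1 and -1.26 without KD replicate 3, and did not pass in either case (edgeR adjusted p = 0.664 and 0.0808). With the leukocyte genes set level, C1QA was at -1.51 (edgeR adjusted p = 1.83e-04) and C1QB at -1.85 (adjusted p = 8.30e-04).

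C1QC fell under the filter on low counts, with 6, 10 and 12 counts in NC and 2, 2 and 0 in KD. All KD libraries were below all NC libraries. The 28 counts in NC and 4 in KD gave a level 6.44-fold lower in KD (exact binomial 95% interval of the ratio 2.25 to 25.3), and 15.4-fold lower on the leukocyte scale. With no filter the C1QC log2 fold change was -2.59 ± 0.941 SE (edgeR adjusted p = 0.0147). Every nonzero count of C1QA, C1QB and C1QC was even, and so was every count of CFB and C3AR1, a pattern seen where each mate of a read pair is counted. With the counts divided by 2 the C1QC interval ran from 1.48 to 58.4. Intervals cover counting error only. Another gene on the same strand shares 608 exon bases with C1QA and 137 with C1QC, and held 22, 28 and 28 counts in NC and 9, 26 and 26 in KD, nearly those of C1QA.

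The balance of the C1q chains does not depend on the scaling between libraries. Per kilobase of exon, C1QC made up 25.3% ± 5.81 of the C1q signal in NC and 8.76% ± 8.65 in KD, and C1QA 47.6% ± 6.78 and 63.3% ± 7.09 (SD, n = 3 each). Neither share overlapped between groups, with an exact two-sided permutation p of 0.10 for each, the smallest that 3 against 3 samples allow, and an adjusted p of 0.15 over the 3 chains. The C1QB share was 27.1% ± 8.46 and 27.9% ± 9.10 (exact permutation p = 1).

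The C1QA windows held STAT and C/EBP motifs, and the C1QB window a C/EBP motif, which 10.5% of all windows hold, and an NF-kB motif. None of the 6 motifs was found in the windows of C2, CD55, CFD or CFP. A match is a description of letters in these windows only.

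**Figure D2:**
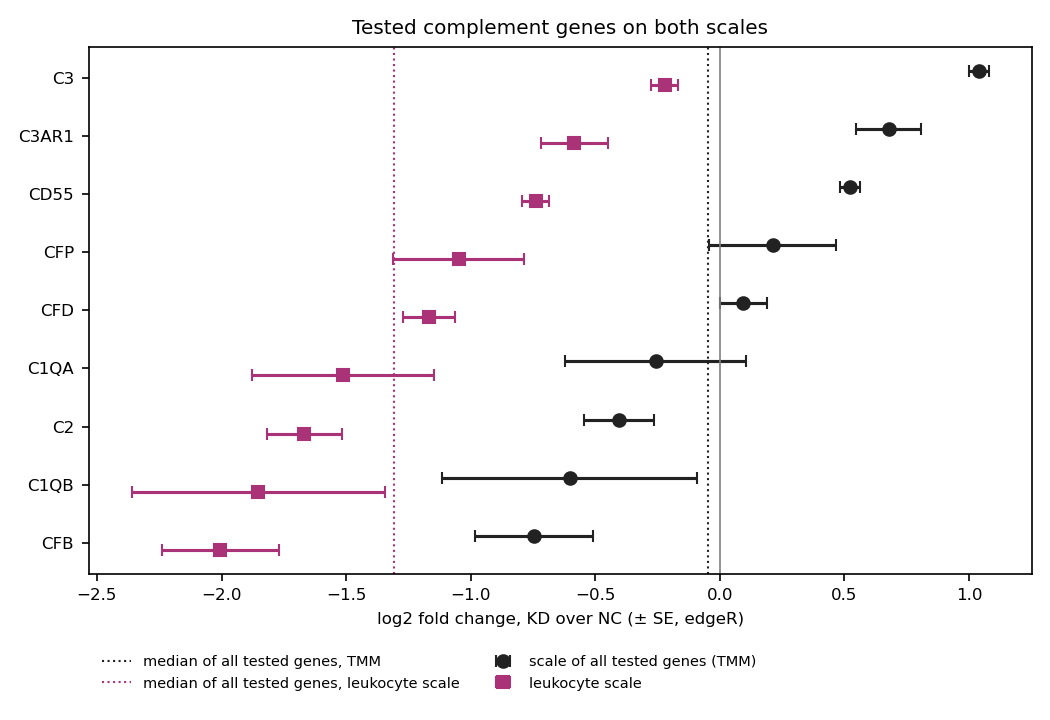
Log2 fold change, KD over NC (horizontal axis, ± SE from edgeR), of the 9 tested complement genes on the scale of all tested genes (circles) and on the leukocyte scale (squares), with dotted lines at the median of all tested genes on each. The order of the genes is the same on both, while all 9 lie below 0 on the leukocyte scale.

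Levels between genes were compared as TMM-scaled CPM per kilobase of exon. In NC, C3 was first at 10.4 ± 0.263, followed by CD55 at 8.63 ± 0.119, CFD at 4.12 ± 0.141, C3AR1 at 1.12 ± 0.114, C2 at 0.558 ± 0.0610 and CFB at 0.338 ± 0.0172 (SD, n = 3). Each of these 6 stood clear of the next in every library. Below them C1QA (0.231), CFP (0.178), C1QB (0.133) and C1QC (0.125) overlapped with their neighbours. In KD the first 5 kept their order, with C3 at 21.3 ± 0.436 and CD55 at 12.4 ± 0.257. There CFB (0.201) overlapped with CFP (0.207) and C1QA (0.193). Among all tested genes the C3 level per kilobase exceeded 82.3% in NC and 89.8% in KD, whereas that of C1QA exceeded 12.6% and 17.6%.

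Ratios of counts within a library are also free of the scaling, and were chosen after the values were seen. For each C3AR1 count the NC libraries held 33.6, 32.4 and 27.0 counts of C3 and the KD libraries 46.0, 37.8 and 36.1. C3 counts per CD55 count were 1.37, 1.39 and 1.31 in NC and 1.89, 2.00 and 1.93 in KD. Both ratios were higher in every KD library than in any NC library. The ratio of C3 to CFB went from 67.0 ± 3.67 to 253 ± 92.3, a 3.78-fold step, and that of C3 to C2 from 30.3 ± 3.76 to 81.9 ± 4.40, or 2.70-fold (SD, n = 3 each). C3 to CFD went from 16.0 ± 0.892 to 30.8 ± 0.854. In these 5 ratios the groups did not overlap, and the exact two-sided permutation p was 0.10, the smallest possible, or 0.133 adjusted over the 8 ratios examined. The ratio of CFB to C2 overlapped, at 0.454 ± 0.0619 and 0.352 ± 0.119 (exact permutation p = 0.30, adjusted p = 0.343).

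**Figure D3:**
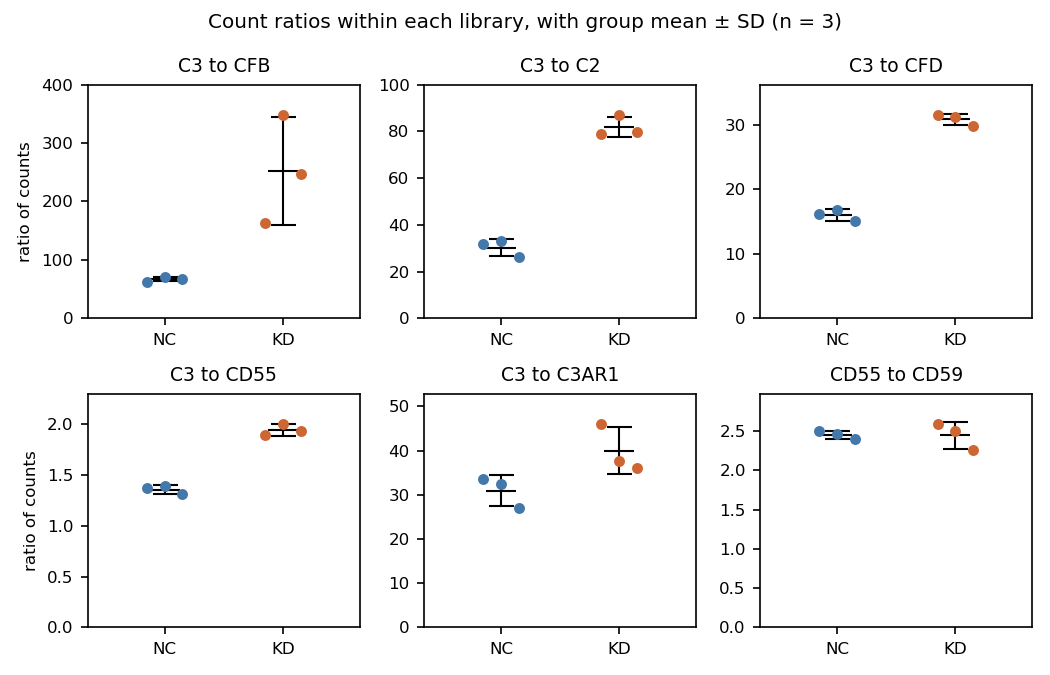
Ratios of counts (vertical axes, each from 0) within each of 3 NC and 3 KD libraries, as points with group mean ± SD. C3 lies higher in KD against CFB, C2, CFD, CD55 and C3AR1, while the ratio of CD55 to CD59 in NC lies within the range of KD.

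CD55 shares its role with other membrane regulators. CD59, which blocks the lytic pore, rose with it from 36.1 ± 1.22 to 52.2 ± 4.61 CPM (log2 fold change 0.53 ± 0.056 SE, edgeR adjusted p = 6.05e-09), and like CD55 was lower on the leukocyte scale, at -0.73. The ratio of CD55 to CD59 was 2.45 ± 0.0509 in NC and 2.45 ± 0.173 in KD (exact permutation p = 1, and adjusted p = 1). CD46, a cofactor for cleavage of C3b, was slightly lower, at 55.7 ± 0.542 and 50.9 ± 2.00 CPM (log2 fold change -0.13 ± 0.046 SE, edgeR adjusted p = 0.0125), and at -1.39 on the leukocyte scale. Leaving out KD replicate 1 or KD replicate 2 ended this call (edgeR adjusted p = 0.0624 and 0.0728). The ratio of CD55 to CD46 was 1.59 ± 0.0336 in NC and 2.50 ± 0.0677 in KD without overlap (exact permutation p = 0.10, adjusted p = 0.133). Thrombomodulin (THBD) rose by 1.18 ± 0.061 on the log2 scale, and was at -0.09 without passing on the leukocyte scale. SUSD4 fell from 94, 109 and 129 counts to 0, 4 and 0, and is lower on both scales. In all, 2 of 4 tested genes of this group were higher and 2 lower, where 36.2% of all tested genes were higher and 40.3% lower.

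Of the other receptors 7 of 8 tested were higher in KD and 1 was lower, against 36.2% and 40.3% of all tested genes. The median log2 fold change of the 8 receptors was 1.04. After scaling to the leukocyte genes 0 of the 8 were higher and 3 lower, where 2.73% of all tested genes were higher and 84.7% lower. The C5a receptor C5AR1 rose from 30.3 ± 1.26 to 70.8 ± 2.20 CPM (log2 fold change 1.22 ± 0.049 SE, edgeR adjusted p = 2.26e-17). ITGAM and ITGB2, the chains of complement receptor 3, rose by 1.19 ± 0.048 and 1.18 ± 0.042, and CD93 by 1.16 ± 0.041. Set against the leukocyte genes these 4 were at -0.04, -0.08, -0.08 and -0.10, and none of them passed there. C3AR1, at -0.58 on that scale, did pass. ITGB2 is itself among the 39 genes that set this scale. The lower gene was CR2, the B cell receptor for C3 fragments, with 26, 16 and 18 counts in NC and 0 in each KD library.

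Among the other genes of the classical and lectin pathways 1 was higher and 4 were lower of 9 tested. The shares of all tested genes were 36.2% higher and 40.3% lower. The lectin ficolin-1 (FCN1), made by monocytes, rose from 1.07 ± 0.133 to 7.08 ± 1.25 CPM (log2 fold change 2.72 ± 0.166 SE, edgeR adjusted p = 1.35e-13) and stayed higher on the leukocyte scale, at 1.46. C1S, the protease that cleaves C4 and C2, fell from 3.97 ± 0.739 to 1.62 ± 0.284 CPM (log2 fold change -1.30 ± 0.180 SE, edgeR adjusted p = 5.13e-07). The scavenger receptor collectin COLEC12 fell by 4.44 on the log2 scale, from 13.3 to 0.610 CPM. The lectin pathway protease gene MASP2 was lower by little, at 83.6 ± 1.41 and 74.9 ± 3.18 CPM (log2 fold change -0.16 ± 0.043 SE, edgeR adjusted p = 0.00198). With the leukocyte genes level, C1S was at -2.56, COLEC12 at -5.70 and MASP2 at -1.42. MASP2 shares 173 exon bases with TARDBP on the other strand. COLEC12, C1S, C9, ITGB2, CD59, CD46, HIF1A, CEBPB and LIF also share exon bases with other genes of the table.

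In the terminal pathway 1 of 3 tested genes was higher and 0 lower, against 36.2% and 40.3% of all tested genes. The higher gene was C9, at 1.18 ± 0.267 and 2.04 ± 0.292 CPM (log2 fold change 0.79 ± 0.216 SE, edgeR adjusted p = 0.00203). On the leukocyte scale C9 was at -0.47. Of 15 other soluble regulators 3 could be tested. SERPING1, the inhibitor of the C1 proteases, fell from 14.6 ± 0.806 to 5.38 ± 0.253 CPM (log2 fold change -1.44 ± 0.090 SE, edgeR adjusted p = 2.35e-13) and was at -2.70 on the leukocyte scale, while clusterin (CLU) did not pass. Over all 50 other complement genes, 27 were tested, of which 11 were higher and 8 lower, with a median log2 fold change of 0.29. Of all tested genes 36.2% were higher and 40.3% lower. Scaled to the leukocyte genes, 1 of the 27 was higher and 19 lower, against 2.73% and 84.7% of all tested genes.

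**Figure D4:**
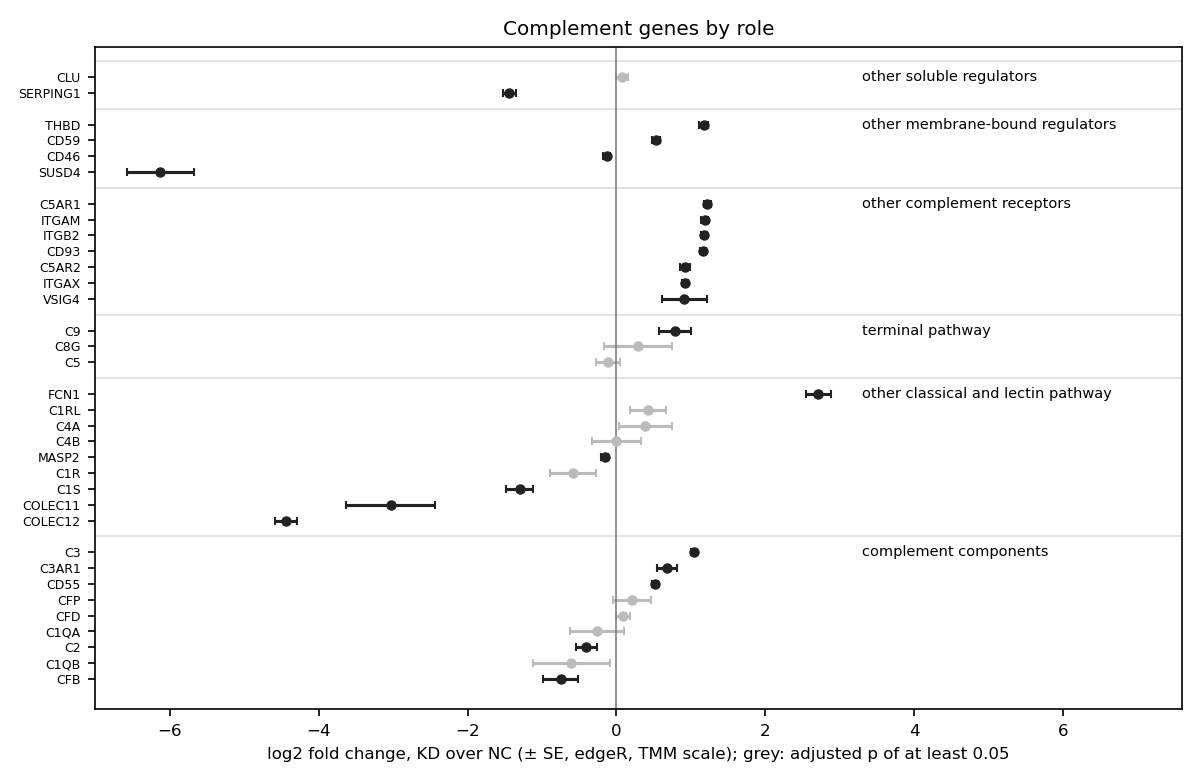
Log2 fold change, KD over NC (horizontal axis, ± SE from edgeR, scale of all tested genes), of tested complement genes by role, with genes that did not pass in grey. CR2, with no count in KD, is left out; the other receptors all lie right of 0, but below 0 on the leukocyte scale.

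Of 13 transcription factors known to act at complement genes all were higher in KD on the first scale, against 36.2% of all tested genes. On the leukocyte scale 9 of the 13 were lower and 0 higher, against 84.7% and 2.73% of all tested genes. SPI1, on this list, is also among the 39 genes that set that scale. The 13 factors included CEBPB (1.00 ± 0.044), known to act at the C3 promoter, HIF1A (1.35 ± 0.041) and IRF8 (1.31 ± 0.057), given as log2 fold change ± SE. With leukocyte genes level, CEBPB was at -0.26, while HIF1A at 0.09 and IRF8 at 0.05 did not pass. Of 7 cytokines known to induce complement genes 6 were tested and all were higher, against 36.2% of all tested genes. IL1B rose from 2457 ± 38.9 to 6959 ± 118 CPM, and LIF (1.68 ± 0.051), IL1A (2.66 ± 0.111) and TNF (1.81 ± 0.084) rose as well. These 4 passed on the leukocyte scale as well, at 0.24, 0.42, 1.40 and 0.54, where 2.73% of all tested genes were higher. IFNG, a known inducer of CFB and C2, had no count in any library.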

How the data were processed

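The authors deposited a table of raw whole-number counts by gene for 6 libraries, with exon coordinates and lengths. Per the submitters' processing notes, fastp 0.23.0 and the GRCh38 build were used. The sources used here do not give the aligner, the counter, the annotation release or the use of strand. Of the counts from 1 to 20, 67.8% to 70.3% were even, so if mates were counted singly small counts hold fewer fragments than their number. All pairs of libraries within a group differed by more than sampling noise (chi-square over degrees of freedom 3.24 to 6.46).

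KD was tested against NC over all 6 libraries with edgeR 4.0.16 in R 4.3.3 (quasi-likelihood test, robust estimation, TMM, filterByExpr, 21905 genes, Benjamini-Hochberg adjusted p of 0.05, two-sided). The SE was taken as log2 fold change over the root of F. Marker sums are CPM by library size alone, and other CPM are TMM-scaled. Shares and ratios were tested by exact permutation (scipy 1.17.1). The leukocyte scale takes TMM over 39 of 40 listed leukocyte-restricted genes, those with a mean of at least 1 CPM. The steps were tested on simulated data, in which only genes with a mean of at least 1 CPM were changed. Of changes of 1.25-fold, 1.5-fold and 2-fold, 58%, 86% and 100% were recovered. Apart from the changed genes both groups were simulated with the same RNA makeup, so the choice of scale was not tested. Alternatives were DESeq2 1.42.0 and its size factors, library sizes alone, no filter or a mean of at least 1 CPM, limma-voom (limma 3.58.1), no robust estimation, leaving out each library, a replicate block, counts divided by 2, a stricter threshold of 0.01 and testing against a 1.5-fold change.

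The members and all lists were chosen with earlier results of these data known. Of the other complement lists, transcription factors and cytokines, up to 4 genes per list are named in order of p, from those that passed and reached 1 CPM in the higher group, except that some genes are not reported here. CR2, CLU, IFNG, SPI1, SERPINA1, ALB, NEFM, ZIC2, DSP and markers at 0 are named outside this rule, after their values were seen.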

Additional observations from a re-analysis of the deposited data

How the results depend on the processing

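The scaling decided most directions. On the leukocyte scale 9 members passed, 0 higher and 9 lower, in place of 5 with 3 higher and 2 lower. Of the other complement genes 1 was higher and 19 lower in place of 11 and 8. Of all tested genes 2.73% were higher and 84.7% lower there, in place of 36.2% and 40.3%. Among the members and the genes named by the rule, the log2 fold changes that turned there were those of C3 (-0.22), CFD (-1.17), CFP (-1.05), C3AR1 (-0.58), CD55 (-0.74), C9 (-0.47), CD93 (-0.10), ITGB2 (-0.0804), C5AR1 (-0.0403), ITGAM (-0.0762), THBD (-0.0854), CD59 (-0.73) and CEBPB (-0.26). SPI1 (-0.0057) and CLU (-1.18), named outside the rule, turned as well. With library sizes alone 5 members passed in the same directions, CFD turned to -0.092, and METTL1 passed at -0.29 (edgeR adjusted p = 0.00249). METTL1 passed on the leukocyte scale as well, at -1.37 (edgeR adjusted p = 7.87e-21). The median tested gene stood at -0.23 and -1.31 on these 2 scales. Against a fold of 1.5, 1 member passed, 1 higher and 0 lower. At an adjusted p of 0.01, 1 member was lower. Leaving out a library gave 4 to 6 members past the threshold and 1 to 3 lower, with C1QC tested in some of these fits, and the C1QA log2 fold change ran from -0.48 without KD replicate 3 to 0.069 without KD replicate 1. The C1QB share of C1q, KD minus NC, turned from 0.834 to -0.867 percentage points when not divided by length, and without single libraries it ran from -4.15 (without KD replicate 3) to 4.75 (without KD replicate 2). The CD55 to CD59 ratio, on the log2 scale, ran from -0.0445 (without KD replicate 1) to 0.0538 (without KD replicate 3). The cause of these changes was not tested. With DESeq2, its size factors, limma-voom, no robust estimation, counts divided by 2 or a mean of at least 1 CPM, 5 members passed, 3 higher and 2 lower. The replicate block also gave 5 members, 3 higher and 2 lower, and 19 other complement genes. Same-numbered libraries deviated together with correlations of 0.0153, 0.0059 and -0.0138, and not every library correlated best with its own number, so the libraries share only a number. Depth limits C1QA, C1QB, C1QC, CFB and CFP, whose counts stayed under 100 in every library.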
